A study of Mus musculus with 60 samples.

Results

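The 4 genes described here, Cacna2d1, Cacna2d2, Cacna2d3 and Cacna2d4, encode the α2δ subunits of voltage-gated calcium channels. They were taken by name from 21883 protein-coding genes of the mouse, and all 4 were found. Cacna2d1 had been picked because, among genes tied to axon regeneration, its number of accessible sites differed most between sciatic nerve injury and its sham control. Cacna2d1 was thus chosen by its ATAC peak numbers in SNA and Sham, as defined below, and its values in that contrast are a description on which nothing rests.

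The tissue was the L4 to L6 dorsal root ganglia (DRG) of C57BL/6 mice aged 6 to 8 weeks, taken 24 hours after surgery. The 4 surgeries were compared: axotomy of the sciatic nerve (SNA), a sham operation on that nerve (Sham), axotomy of the dorsal columns in the spinal cord (DCA) and laminectomy alone (Lam), the opening of the spine that a dorsal column axotomy also needs. ATAC-seq, which finds DNA open to a transposase, used 3 samples of 1 mouse each per surgery. Chromatin immunoprecipitation for H3K9ac and H3K27ac, marks of active promoters and enhancers, and for H3K27me3, a mark of Polycomb-repressed chromatin, used 2 samples per surgery, each pooled from 10 mice. The authors merged all replicates of an assay and surgery before depositing 1 peak list, so there are 16 lists, no replicate error and no test between surgeries. A peak number is a count over 1 list. In this bulk tissue, a cell type that makes up fewer cells and less signal per cell cannot be told apart.

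Voltage-gated calcium channels let calcium enter a neuron when its membrane depolarizes, and at nerve endings that calcium triggers transmitter release. The α2δ subunit is an extracellular protein anchored to the membrane that helps bring the pore-forming subunit to the surface and to presynaptic terminals. In DRG neurons α2δ-1, the product of Cacna2d1, is known to increase after peripheral nerve injury, and it is the binding site of the pain drugs gabapentin and pregabalin, which also bind α2δ-2.

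The promoters of Cacna2d1, Cacna2d2 and Cacna2d3 are shown because each lay in an ATAC peak in all 4 ATAC lists. Those of Cacna2d1 and Cacna2d2 are also overlapped by the H3K9ac peaks at start sites discussed below. Each sequence is the 250 bases upstream of the start site, read 5′ to 3′ on the strand of the gene, from RefSeq for build GRCm38.p6. Capitals mark GGGCGG or its reverse complement, the GC box. The Cacna2d1 window is chr5:15934441-15934690 on the plus strand, that of Cacna2d2 is chr9:107399630-107399879 on the plus strand, and that of Cacna2d3 is chr14:29721865-29722114 on the minus strand.
Cacna2d1: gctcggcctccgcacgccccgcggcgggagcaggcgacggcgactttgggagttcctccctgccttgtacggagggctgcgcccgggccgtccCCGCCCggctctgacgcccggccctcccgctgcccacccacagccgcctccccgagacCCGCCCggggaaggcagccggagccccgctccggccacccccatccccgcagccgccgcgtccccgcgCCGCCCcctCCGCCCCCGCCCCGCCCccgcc
Cacna2d2: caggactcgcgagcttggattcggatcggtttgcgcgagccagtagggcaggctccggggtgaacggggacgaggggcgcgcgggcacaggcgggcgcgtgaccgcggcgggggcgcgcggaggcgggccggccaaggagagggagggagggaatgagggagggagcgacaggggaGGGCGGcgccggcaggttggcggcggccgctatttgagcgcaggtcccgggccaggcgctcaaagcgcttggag
Cacna2d3: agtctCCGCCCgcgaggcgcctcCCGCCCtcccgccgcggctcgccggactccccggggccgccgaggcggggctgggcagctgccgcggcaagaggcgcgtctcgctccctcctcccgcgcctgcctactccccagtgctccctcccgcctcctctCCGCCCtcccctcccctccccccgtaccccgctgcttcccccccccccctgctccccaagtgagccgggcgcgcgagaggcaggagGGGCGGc

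All 3 promoters were rich in G and C. The GC content was 82.4% for Cacna2d1, 74.4% for Cacna2d2 and 80.0% for Cacna2d3, against a median of 52.4% over 32851 promoters of the same length. The Cacna2d1 window held 36 CG dinucleotides, that of Cacna2d2 held 34 and that of Cacna2d3 held 30, against a median of 6. GGGCGG was matched on either strand 6 times in Cacna2d1, 1 time in Cacna2d2 and 4 times in Cacna2d3, counting overlapping matches, and 32.7% of all promoters held it. The AP-1 motif TGANTCA was in none of the 3 windows and in 6.75% of all promoters. The cyclic AMP response element TGACGTCA (1.55% of promoters) and the E-box CACGTG (6.02%) were also in none of the 3. TGANTCA, TGACGTCA and CACGTG each read the same on both strands.

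The genes differ widely in size. Cacna2d1 spans chr5:15934264-16374511 (440 kb), Cacna2d2 chr9:107399733-107529346 (130 kb), Cacna2d3 chr14:28904943-29722775 (818 kb) and Cacna2d4 chr6:119236524-119352407 (116 kb). A peak was assigned to a gene if it touched the gene or the 10 kb on either side. No other protein-coding gene lay in the window of Cacna2d1. The window of Cacna2d2 took in Tmem115 and Cyb561d2, Lrtm1 lies within Cacna2d3, Lrtm2 lies within Cacna2d4, and Adipor2 lies 0.743 kb from Cacna2d4. Peaks in introns and exons were not separated, because the gene table used here holds no exons.

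The ATAC lists held between 153556 (Sham) and 174605 (SNA) peaks, the H3K9ac lists between 50332 (Sham) and 89647 (DCA), the H3K27ac lists between 43803 (Sham) and 75824 (SNA), and the H3K27me3 lists between 90011 (DCA) and 154055 (Lam). Read depth is unknown. Of the 6 marker genes of sensory neurons, 6 had an ATAC peak at a gene end in all 4 lists, which gives 24 of 24 pairs of gene and list, but H3K9ac peaks were there in 3 of 24 pairs and H3K27ac peaks in 3 of 24. Markers of satellite glia and Schwann cells had H3K9ac in 20 of 24 pairs and H3K27ac in 21 of 24. Markers of macrophages had ATAC peaks in 17 of 24 pairs, H3K9ac in 9 and H3K27ac in 6, and markers of tissues outside the ganglion had 3, 0 and 0 of 16. The DRG label was thus matched by accessible neuronal genes, while acetylation peaks at the same genes were few, and Isl1 and Avil had none in any list.

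Cacna2d1 had 21 ATAC peaks after Sham surgery, 47 after SNA, 30 after Lam and 17 after DCA. SNA was the highest of the 4 lists and DCA the lowest, and the controls Sham and Lam lay between them. A gene was called when one list had at least 1.5 times as many peaks as the other and at least 3 more. By this rule Cacna2d1 had more peaks in SNA than in Sham, the contrast that chose it, as did 14.6% of all protein-coding genes and 19.2% of the 2428 genes of at least 100 kb. The difference of 26 peaks was the 25th highest of 21883 genes, and also the 25th highest of those of at least 100 kb. The SNA list was 1.14 times as long as the Sham list.

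In the spinal injury, which the choice of the gene did not use, Cacna2d1 had 13 fewer ATAC peaks in DCA than in Lam, 0.567 times as many. This difference passed the fold rule. It was the 36th lowest of 21883 genes, and also the 36th lowest of those of at least 100 kb. A deficit past the rule was found for 7.64% of all genes and for 4.04% of genes of at least 100 kb. The DCA list as a whole was 1.04 times as long as the Lam list, so the deficit in this gene ran against the list sizes. The SNA–Sham and DCA–Lam contrasts share no samples. With only peaks of q at most 0.05, however, the DCA deficit was 6 peaks (16 against 22) and no longer passed the rule.

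**Figure D1:**
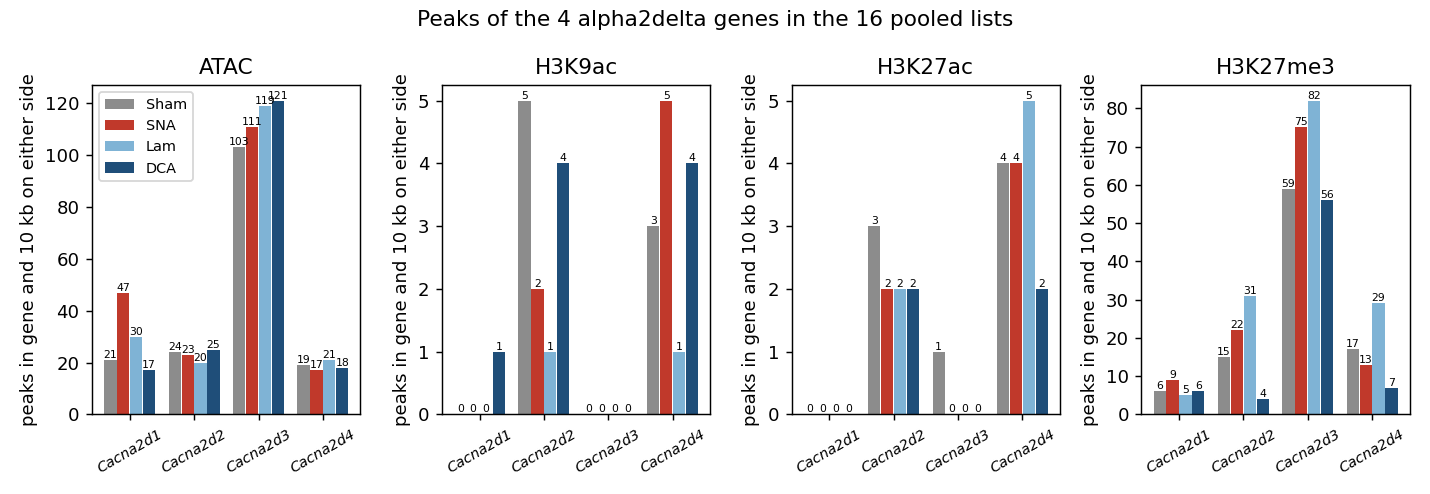
Number of peaks (y axis, from 0) in each α2δ gene and 10 kb on either side, with 1 panel per assay and 1 bar per pooled list (Sham, SNA, Lam, DCA). Cacna2d1 has 47 ATAC peaks after SNA and 17 after DCA, and Cacna2d1 and Cacna2d3 have almost no H3K9ac or H3K27ac peaks. There are no error bars because each list pools its replicates.

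The controls differed from each other too. Cacna2d1 had 9 more ATAC peaks in Lam than in Sham, 1.43 times as many, which did not pass the rule. With only peaks of q at most 0.05 it was 22 against 14, which passed. Without that limit, the same comparison passed the rule for 12.0% of all genes and 10.9% of long genes. The share of genes passing with the q limit was not computed. Lam–Sham shares its Lam list with DCA–Lam and its Sham list with SNA–Sham, so these differences are not independent of each other. The difference between surgeries without axotomy was 9 peaks, against 26 for SNA and -13 for DCA.

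**Figure D2:**
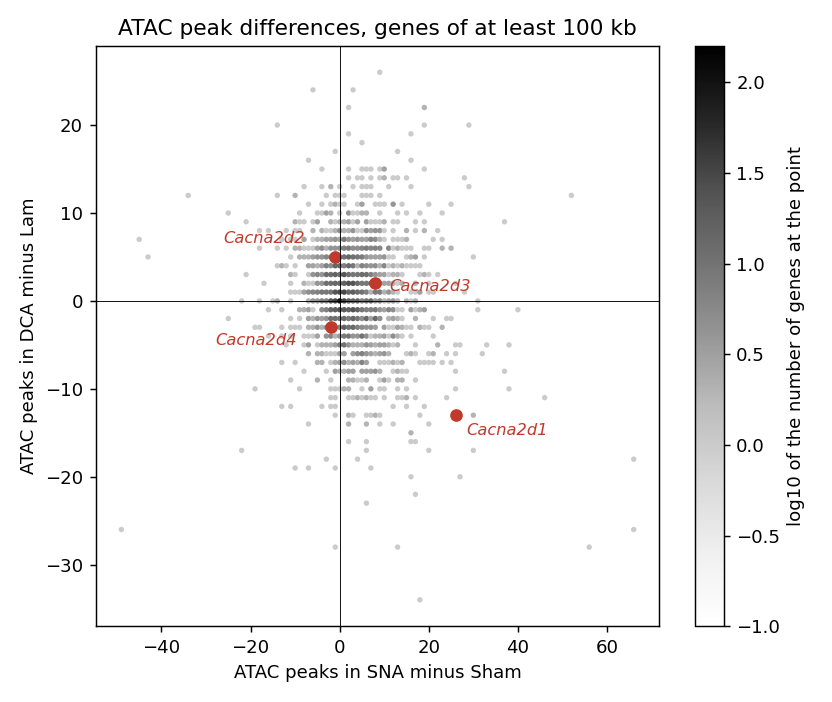
Difference in the number of ATAC peaks between SNA and Sham (x axis) and between DCA and Lam (y axis) for 2428 genes of at least 100 kb; grey depth gives the number of genes at a point on a log10 scale, and the α2δ genes are in red. Cacna2d1 lies at 26 and -13, in the lower right, while Cacna2d2, Cacna2d3 and Cacna2d4 lie within 8 peaks of 0 on both axes.

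The number of peaks kept at Cacna2d1 under a stricter limit also differed between the lists. At −log10 q of 2 or more there were 10 peaks after Sham, 35 after SNA, 15 after Lam and 6 after DCA. At 5 or more there were 3, 9, 2 and 1. These peaks are subsets of those that chose the gene, so the SNA and Sham numbers are again a description. At the limit of 5 the lists of DCA and Lam differed by 1 peak.

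**Figure D3:**
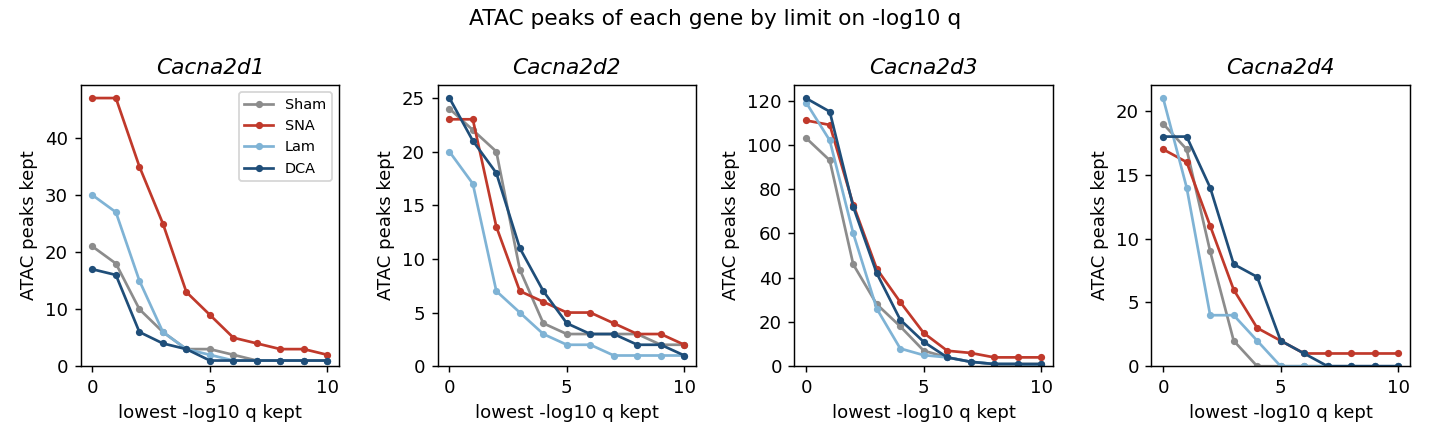
Number of ATAC peaks of each gene (y axis, from 0, scaled per panel) that remain when only peaks with at least the −log10 q on the x axis are kept, with 1 line per list. For Cacna2d1 the SNA line lies above the others at each limit drawn, while Sham, Lam and DCA meet at a limit of 4, with 3 peaks each.

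Cacna2d1 was chosen by its own peaks in SNA and Sham, so the numbers in the DNA beside it are a description only. In the 500 kb before the Cacna2d1 window there were 12 ATAC peaks after Sham, 8 after SNA, 7 after Lam and 9 after DCA. In the 500 kb after it there were 24 after Sham, 18 after SNA, 21 after Lam and 20 after DCA. On both sides the SNA list held fewer peaks than the Sham list.

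Along the gene, the lists differed in where the peaks lay. In Sham, 8 of 21 ATAC peaks were in the first 10% of Cacna2d1, 10 in the middle and 3 in the last 10%. In SNA, 5 of 47 were in the first 10%, 32 in the middle, 9 in the last 10% and 1 beyond the gene. Lam had 4, 20 and 5 of 30 in the same 3 stretches and DCA had 1, 12 and 4 of 17. The larger number in SNA was thus in the middle and last stretches, and the first held fewer peaks than in Sham.

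When the 4 ATAC lists were merged, Cacna2d1 held 78 regions. Of these, 24 were in SNA only (30.8%, Wilson 95% interval 21.6 to 41.7%, which covers counting error only), against 16.1% of 368411 merged regions of the genome. Since the SNA list chose the gene, this excess is a description. Regions in DCA only numbered 5 (6.41%, interval 2.77 to 14.1%), against 15.0% of all regions. Regions in Lam and not in DCA numbered 22 (28.2%, interval 19.4 to 39.0%), against 23.0% of all, and those in DCA and not in Lam numbered 9 (11.5%, interval 6.19 to 20.5%), against 24.9%. The DCA list thus had few regions of its own at Cacna2d1. All these shares are of the 78 regions, which include the 24 of SNA only, so the SNA regions that chose the gene lower each of the others.

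Few regions of Cacna2d1 were shared. Only 2 of 78 were in all 4 lists (2.56%, interval 0.706 to 8.88%), against 10.0% of all merged regions. One was at the start site, at chr5:15933606-15935717. Its −log10 p was 26.3 after Sham, 38.7 after SNA, 26.7 after Lam and 40.9 after DCA, and in each list it was the strongest ATAC peak of the gene. The other shared region was 286 kb into the gene, at chr5:16220668-16221149, with a −log10 p of 5.57 after Sham, 14.0 after SNA, 6.10 after Lam and 3.15 after DCA. A −log10 p belongs to its own list, and depth is unknown, so these values are not compared between lists.

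The regions of Cacna2d1 can be read by the surgeries that share them. Regions in both injury lists and in neither control list numbered 3 (3.85%, against 4.26% of all merged regions), at 199, 419 and 426 kb from the start, with −log10 p of at most 4.60. Regions in both controls and neither injury numbered 2 (2.56%, against 2.62%), at 156 and 304 kb. Both shares were near those of all regions, but they rest on 3 and 2 regions, and the interval for the first is 1.32 to 10.7%. Both patterns also use the SNA and Sham lists, which chose the gene, so they are a description. A further 5 regions were in SNA, Lam and DCA but not in Sham, at 57.3, 223, 257, 295 and 416 kb. Of these, the one at chr5:16157480-16158014 had a −log10 p of 8.12 after SNA, 8.16 after Lam and 6.55 after DCA, with no peak in Sham. The share of all merged regions in SNA, Lam and DCA but not in Sham was not computed. Presence in SNA and absence from Sham also chose the gene, so this count is a description. The strongest region in SNA only was 24.9 kb into the gene, at chr5:15959359-15959775, where the list gives a fold enrichment of 2.95 and a −log10 p of 11.9.

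**Figure D4:**
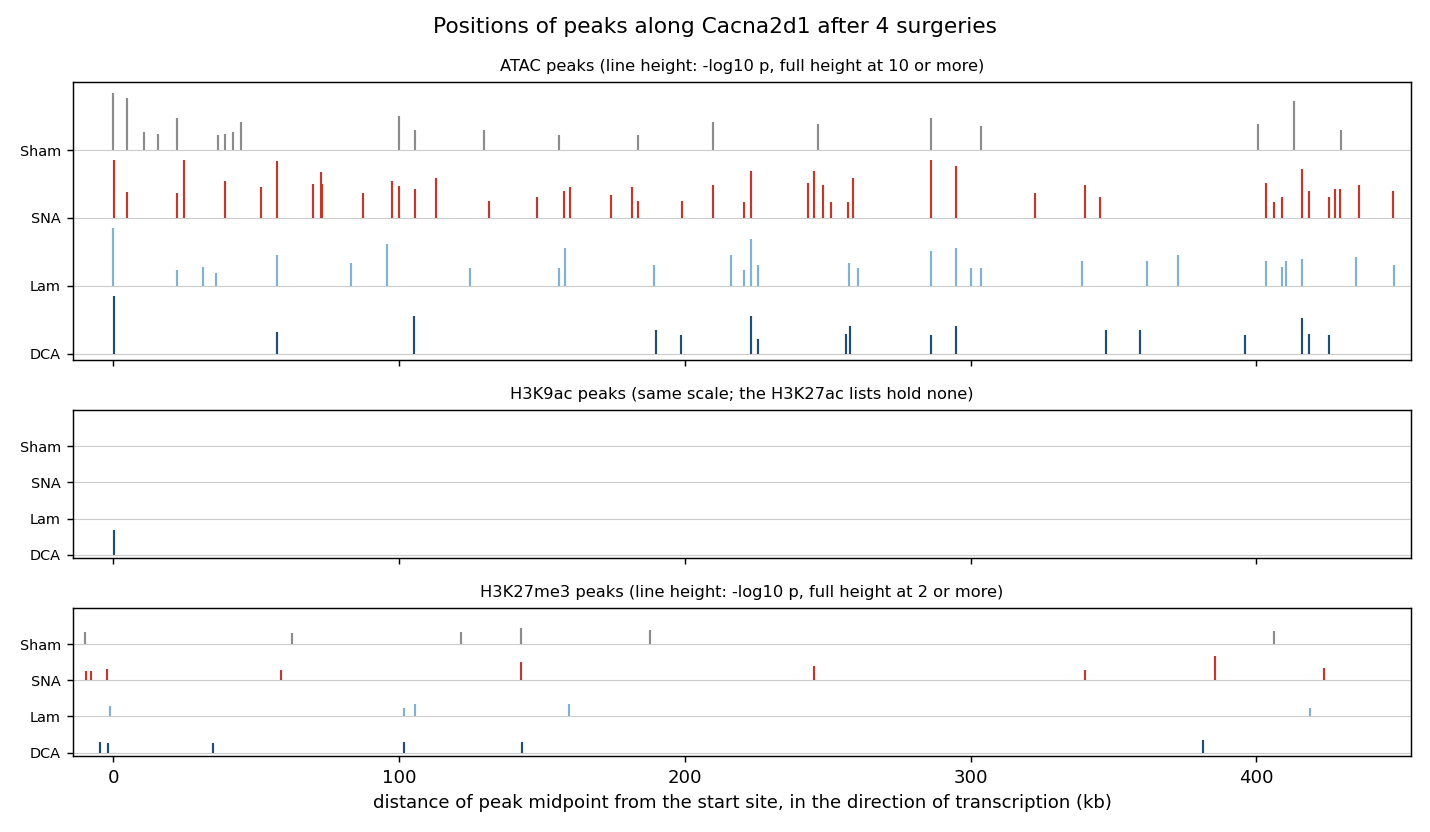
Position of each peak along Cacna2d1, as distance of its midpoint from the start site in kb (x axis), with 1 lane per list and line height for −log10 p. The SNA lane holds 47 ATAC peaks spread over the gene, the DCA lane 17, and a peak at the start site stands in all 4 ATAC lanes. The only H3K9ac peak is at the start site in DCA.

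Histone acetylation was nearly absent from Cacna2d1. H3K9ac peaks numbered 0 after Sham, 0 after SNA, 0 after Lam and 1 after DCA, and H3K27ac peaks numbered 0 in each of the 4 lists. Of the long genes, 12.4% had at most 1 acetylation peak over the 8 lists. The single peak was at the start site (chr5:15934036-15935596), with a fold enrichment of 3.27 and a −log10 p of 8.10. A start site marked by H3K9ac in DCA alone was found for 4.12% of 17491 genes with a start site in the table. The nearest H3K9ac peak in the other lists was 1.04 Mb away in Sham, 0.619 Mb in SNA and 1.64 Mb in Lam. The nearest H3K27ac peak was 96.5 kb away in Sham, and 1.36 Mb in SNA, 1.23 Mb in Lam and 1.04 Mb in DCA. In the SNA list, 3.20% of start sites lay at least as far from an H3K27ac peak.

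None of the ATAC peaks of Cacna2d1 overlapped an acetylation peak of the same surgery, except 1 of 17 in DCA. In SNA, 0 of 47 overlapped H3K9ac or H3K27ac, against 16.9% and 15.1% of all ATAC peaks in that list. In Sham it was 0 of 21, against 14.1% and 10.7%, and in Lam 0 of 30, against 13.0% and 15.8%. In DCA 1 of 17 overlapped H3K9ac and 0 of 17 H3K27ac, against 20.6% and 10.8%. The extra sites found after SNA were thus without called acetylation. The neuronal markers above also had few acetylation peaks, and the part of that in these counts was not tested.

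H3K27me3 peaks of Cacna2d1 numbered 6 after Sham, 9 after SNA, 5 after Lam and 6 after DCA. The SNA number passed the fold rule against Sham by the smallest margin the rule allows, as did 8.75% of all genes and 18.7% of long genes. The peaks were weak: the highest −log10 p was 1.58, in SNA, and none had a q of at most 0.05. Of the 9 SNA peaks, 3 lay before the gene, of which the nearest ended 0.629 kb from the start site. A peak within 1 kb of the start was also listed in Lam and DCA and not in Sham. Over the 4 lists, Cacna2d1 had 1.41 H3K27me3 peaks per 100 kb, against a median of 3.25 for long genes.

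Cacna2d2 encodes α2δ-2, the form best known from Purkinje cells of the cerebellum, where its loss causes the ducky phenotype of ataxia and seizures. Its ATAC peaks numbered 24 after Sham, 23 after SNA, 20 after Lam and 25 after DCA. No pair of surgeries passed the fold rule. Per 100 kb it was more densely accessible than Cacna2d1, with 15.4 ATAC peaks averaged over the 4 lists against 6.25, and a median of 7.19 for long genes.

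Of the 49 merged ATAC regions of Cacna2d2, 7 were in all 4 lists (14.3%, interval 7.10 to 26.7%). They include the start site, at chr9:107399368-107400714, with a −log10 p of 11.5 after Sham, 9.87 after SNA, 9.10 after Lam and 10.4 after DCA. Another lay 17.4 kb into the gene, at chr9:107416867-107417740, with values of 20.9, 19.9, 6.16 and 12.5 in the same order. The strongest, at chr9:107533583-107535233, was the start of the neighbouring gene Tmem115 and not part of Cacna2d2. Sites in both injuries and neither control numbered 1 (2.04%), as did sites in both controls and neither injury, beside 4.26% and 2.62% of all merged regions.

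H3K9ac peaks in the Cacna2d2 window numbered 5 after Sham, 2 after SNA, 1 after Lam and 4 after DCA. The SNA number was lower than Sham by the rule, as for 0.539% of all genes and 0.618% of long genes, and the DCA number was higher than Lam, as for 21.9% of all genes and 41.0% of long genes. Lam was also lower than Sham, as for 5.36% of all genes and 7.0% of long genes. Of the 5 Sham peaks, 3 lay at Tmem115, where SNA had a single wider peak (chr9:107534085-107536307) in place of the 3. The SNA deficit therefore included pieces of 1 interval of another gene. H3K27ac peaks numbered 3 after Sham, 2 after SNA, 2 after Lam and 2 after DCA, and each list held at least 1 at Tmem115.

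The start site of Cacna2d2 itself had an H3K9ac peak only in DCA, as did that of Cacna2d1. It lay at chr9:107399711-107400119 with a fold enrichment of 3.31 and a −log10 p of 6.55. No H3K27ac list had a peak within 1 kb of it. Both genes thus shared the state of an ATAC peak at the start in all 4 lists, no H3K27ac in any and H3K9ac in DCA alone. Of 10562 start sites with ATAC peaks in all 4 lists, 300 (2.84%) had this state, 50.2% had H3K27ac in all 4 and 66.1% had H3K9ac in all 4. The DCA list of H3K9ac was the longest of the mark, with 89647 peaks against 50667 in Lam, and the part of list length in these calls was not tested.

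Cacna2d3 encodes α2δ-3, which is known from screens in flies and mice as a gene needed for normal responses to painful heat. It is the largest of the 4 genes and had the most ATAC peaks: 103 after Sham, 111 after SNA, 119 after Lam and 121 after DCA. The highest list had 1.18 times the peaks of the lowest, and no comparison passed the fold rule. Its density of 13.5 ATAC peaks per 100 kb was above the median of long genes.

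Of its 285 merged ATAC regions, 13 were in all 4 lists (4.56%), 13 in both injuries and neither control (4.56%, against 4.26% of all regions) and 7 in both controls and neither injury (2.46%, against 2.62%). The start site of Cacna2d3, at chr14:29721338-29723607, was open in each list, with a −log10 p of 20.1 after Sham, 18.9 after SNA, 12.1 after Lam and 14.2 after DCA. Of the sites shared by both injuries alone, the one 275 kb into the gene had a −log10 p of 8.56 in SNA and 6.45 in DCA. A site 490 kb in had 4.26 in SNA and 9.69 in DCA. The shares of injury sites were near those of the whole genome.

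Cacna2d3 had no H3K9ac peak in any list, and its only H3K27ac peak was in Sham at chr14:29280518-29280849, 441 kb from the start, with a −log10 p of 8.73. None of its 103 to 121 ATAC peaks overlapped acetylation of the same surgery, against 13.0 to 20.6% of all ATAC peaks for H3K9ac and 10.7 to 15.8% for H3K27ac, by list. The nearest acetylation peak to its start site was 246 kb away in each of the 8. Cacna2d1 and Cacna2d3, the longest of the 4 genes, were thus both accessible at the start and without acetylation over most or all lists. Among start sites with ATAC peaks in all 4 lists, 9.0% had neither mark in any list.

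Cacna2d4 encodes α2δ-4, best known from photoreceptors of the retina, where mutations impair vision. Its ATAC peaks numbered 19 after Sham, 17 after SNA, 21 after Lam and 18 after DCA, and no comparison passed the fold rule. Regions at and near its lower-coordinate end, at chr6:119235931-119237309 and chr6:119237411-119238222, were open in all 4 lists. The second of these had a −log10 p of 5.42 after Sham, 13.1 after SNA, 5.78 after Lam and 5.26 after DCA, and it was the strongest ATAC peak of the gene in SNA. Of the 42 merged regions, 2 (4.76%) were in both injuries and neither control and 1 (2.38%) was in both controls and neither injury. Of all merged regions, 4.26% and 2.62% were so placed.

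**Figure D5:**
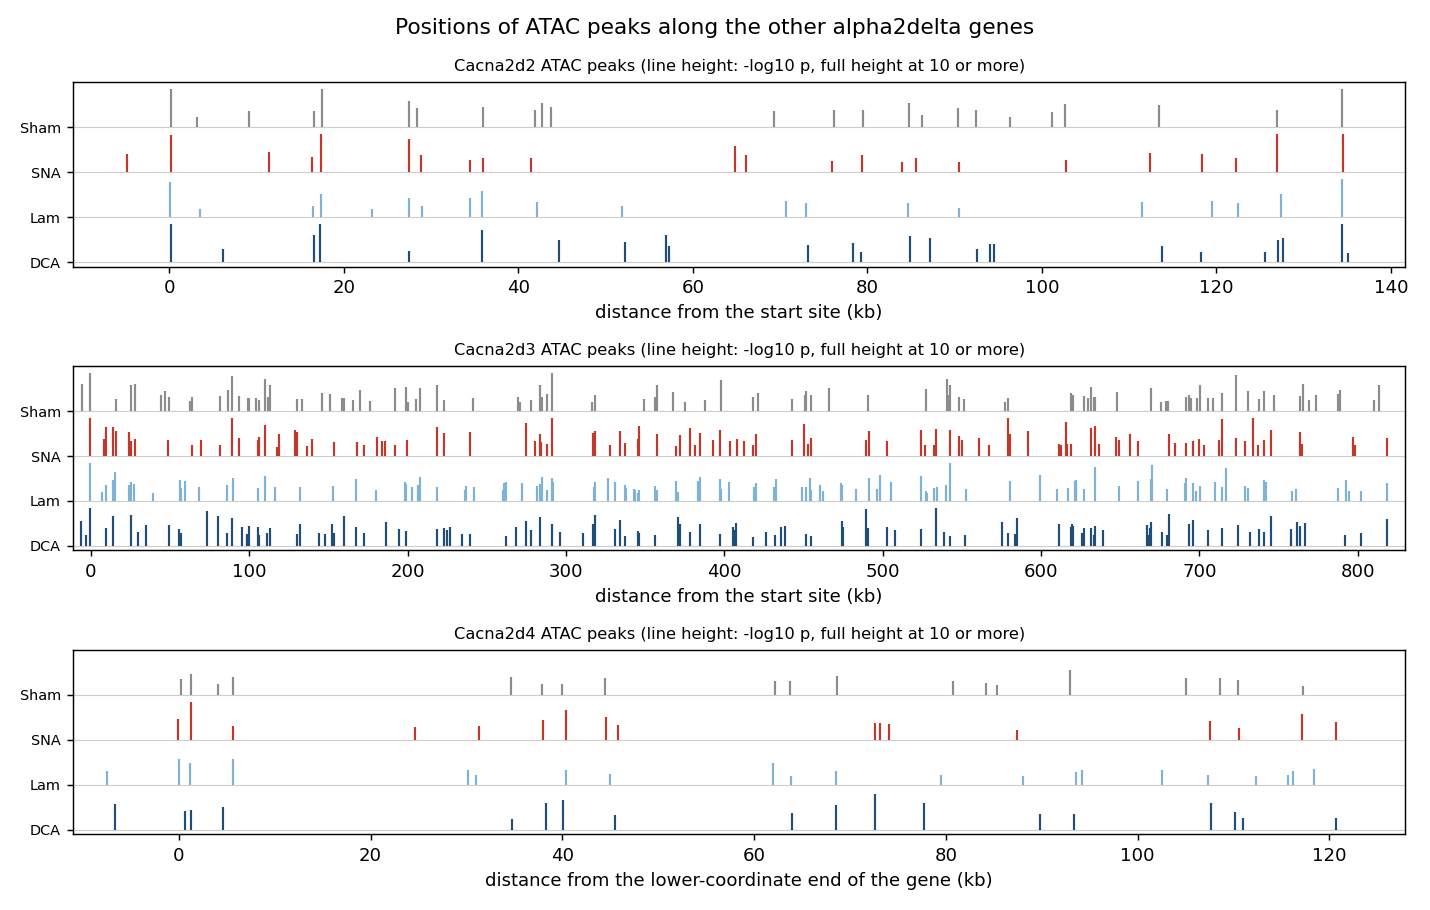
Position of each ATAC peak along Cacna2d2, Cacna2d3 and Cacna2d4, as distance in kb from the start site, or from the lower-coordinate end for Cacna2d4 (x axis), with 1 lane per list and line height for −log10 p. The 4 lanes of each gene hold similar numbers of peaks, from 20 to 25 for Cacna2d2, 103 to 121 for Cacna2d3 and 17 to 21 for Cacna2d4. The tall line at the right of Cacna2d2 is the start of Tmem115.

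Cacna2d4 was the one member with acetylation inside the gene in every list. H3K9ac peaks numbered 3 after Sham, 5 after SNA, 1 after Lam and 4 after DCA, and H3K27ac peaks 4 after Sham, 4 after SNA, 5 after Lam and 2 after DCA. The H3K9ac number was higher in DCA than in Lam by the rule, as for 21.9% of all genes and 41.0% of long genes. The H3K27ac number was lower, as for 11.6% of all genes and 27.7% of long genes, so both calls were frequent ones. A stretch about 110 kb from the lower end held H3K9ac and H3K27ac in all 8 lists, for example at chr6:119346464-119347039 for H3K9ac in Lam. A second group of peaks, 92.2 to 94.2 kb from that end, lay in Lrtm2. A pair of H3K27ac peaks of Sham lay at chr6:119227772-119228207 (−log10 p 18.5) and chr6:119309393-119309755 (16.7). They were the strongest peaks of the window in that list and had no counterpart in the other H3K27ac lists.

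H3K27me3 set Cacna2d2 and Cacna2d4 apart from Cacna2d1 in number. Cacna2d2 had 15 peaks after Sham, 22 after SNA, 31 after Lam and 4 after DCA. Cacna2d4 had 17, 13, 29 and 7, and Cacna2d3 had 59, 75, 82 and 56. Lam was the highest list for each of these 3 genes, and DCA the lowest. Cacna2d2 and Cacna2d4 had fewer peaks in DCA than in Lam by the rule, as did 30.0% of all genes and 50.5% of long genes. Both had more in Lam than in Sham, as did 17.5% of all genes and 28.9% of long genes, so these calls were frequent ones. In covered length, H3K27me3 peaks took up 43.7 kb of the Cacna2d2 window in Sham, 33.9 kb in SNA, 89.3 kb in Lam and 3.89 kb in DCA.

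Of the ATAC peaks of Cacna2d2, 11 of 24 overlapped an H3K27me3 peak after Sham, 3 of 23 after SNA, 15 of 20 after Lam and 1 of 25 after DCA. The shares over all ATAC peaks were 15.8%, 13.1%, 23.1% and 5.37%. Cacna2d4 had 5 of 19, 3 of 17, 11 of 21 and 0 of 18. Both genes thus followed the order of the whole lists, at a higher level in Sham and Lam. Only 1 H3K27me3 peak of the 4 genes had a q of at most 0.05, a Lam peak of Cacna2d4 at chr6:119251627-119251949 where the fold enrichment was 2.83 and the −log10 p 4.08. The lists hold few such peaks at all, between 43 (DCA) and 1613 (Sham), so H3K27me3 counts rest on weak peaks.

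By peak number over the 16 lists, the 4 genes most like Cacna2d1 were Mgat4c, Snap91, Jakmip2 and Lrfn5. The measure was the root mean square difference of log2(peak number + 1), which was 0.46 for Mgat4c and 0.53 for Lrfn5 against a median of 2.13 over all genes. Each had 0 acetylation peaks in the 8 lists. Their ATAC peaks, after Sham, SNA, Lam and DCA in turn, numbered 20, 21, 23 and 20 for Mgat4c and 23, 28, 25 and 19 for Snap91. For Jakmip2 they were 18, 19, 18 and 19, and for Lrfn5 22, 19, 16 and 15. Snap91 had the order of Cacna2d1, with SNA highest, DCA lowest and the controls between, over a smaller range.

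The channel partners of α2δ were read by the same rule, over 32 genes for pore, β and γ subunits, the α2δ relative Cachd1 and reported binding partners such as thrombospondins. In ATAC, 8 of 32 had more peaks in SNA than in Sham and 0 had fewer, where 14.6% and 4.17% of all genes did. Among them were Cacnb2, a β subunit (15 in Sham and 23 in SNA), and the thrombospondin genes Thbs2 (3 and 10) and Thbs3 (4 and 10). None of the 10 pore subunits was among them, and Cacna1b, which encodes the N-type channel of sensory terminals, had 40 in Sham and 42 in SNA.

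In DCA against Lam, 2 of the 32 partner genes had more ATAC peaks, Cachd1 (12 in Lam and 22 in DCA) and Thbs2 (3 and 7), and 0 had fewer. Over all genes 7.75% had more and 7.64% fewer. Among the 4 α2δ and the 32 partner genes, Cacna2d1 was the one called as fewer. In Lam against Sham, 5 had more and 2 had fewer, beside 12.0% and 5.70% of all genes. Cachd1 was one of the 2, with 19 in Sham and 12 in Lam, so its Lam list was the low one in both comparisons.

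In counts not scaled by gene length, acetylation peaks were more numerous at several partner genes than at the α2δ genes. Of the 32 partner genes, 10 had no H3K9ac peak in SNA or Sham and 9 had no H3K27ac peak there. H3K9ac peaks were more numerous in SNA than in Sham for 4 of 32 (12.9% of all genes), such as Cacna1c, an L-type pore subunit (14 and 31). They were fewer for 1 of 32 (0.539% of all genes), Cacna1g, a T-type pore subunit (3 and 0). In DCA they were more numerous than in Lam for 10 of 32 (21.9% of all genes), led by Cacna1a, the P/Q-type pore subunit (3 and 21), Lrp1, an endocytic receptor (9 and 25), and Cacna1c (12 and 27). They were fewer for 0 of 32 (0.621% of all genes).

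H3K27ac peaks were more numerous in SNA than in Sham for 6 of 32 and fewer for 2, beside 18.1% and 1.33% of all genes. In DCA they were fewer than in Lam for 4 of 32, led by Cacna1c (25 and 10), and more numerous for 0, beside 11.6% and 0.685% of all genes. H3K27me3 peaks were more numerous in SNA than in Sham for 8 of 32 and fewer for 4, beside 8.75% and 8.06%. In DCA they were fewer for 23 of 32 and more numerous for 0, beside 30.0% and 1.55%. The α2δ genes Cacna2d2 and Cacna2d4 thus went the way of most channel genes in H3K27me3, and Cacna2d1, with 5 and 6, did not.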

How the data were processed

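Peak lists of ATAC-seq and of ChIP-seq for H3K9ac, H3K27ac and H3K27me3 were used, 16 in all, 1 per assay and surgery. Per the labels, the authors pooled the replicates of a condition into each list, which combine 12 ATAC and 24 ChIP samples of the 60 labelled samples, and 24 are inputs. Coordinates are on mm10, per the submitters' processing notes; the aligner, peak caller and its settings are not given in the sources used here. For each peak the deposited lists hold a score, which was not used, a fold enrichment (a ratio over local background), a −log10 p and a −log10 q, all by the authors' caller. Their use was limited to description and filtering inside each list. The lists hold no reads, so depth and its precision are unknown.

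ATAC intervals repeated for several summits were collapsed to the line with the highest −log10 p. Genes came from the RefSeq table of GRCm38.p6, the same coordinates as mm10, and start sites and sequences from the RefSeq promoter table, in which 3 of the 4 genes matched. A peak belonged to a gene if it overlapped the gene or 10 kb on either side by at least 1 bp, and lists of an assay were merged at the same overlap. At a start site means within 1 kb. A gene was called at a ratio of at least 1.5 and a difference of at least 3 peaks. Shares over all genes give the background. No test was made, since each group is 1 list. Regions named are those at start sites, the strongest, and those in both injury or both control lists only, and the strongest SNA-only and the other shared regions were chosen after their values were seen, as were the windows of 500 kb and the limits on −log10 q. Of partner genes, up to 3 called in each direction by size were eligible; Cacna1b was added. Some items the naming rule covers are not reported here. Members and lists were chosen with earlier results of these data known. Alternatives were the window, q limits, list sizes, summits and overlap. Counting was checked on simulated data. Python 3.11.15, pandas 2.3.3, numpy 2.4.6 and matplotlib 3.10.9 were used.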

Additional observations from a re-analysis of the deposited data

Results flagged for a closer look

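The number of ATAC peaks of Cacna2d1 moved in opposite directions in the 2 injuries, with a difference of 26 for SNA minus Sham and of -13 for DCA minus Lam. The H3K9ac number in the Cacna2d2 window did so too, with -3 for SNA minus Sham and 3 for DCA minus Lam, on numbers of at most 5 peaks. Both genes passed the fold rule in each of these comparisons, of which SNA minus Sham in ATAC chose Cacna2d1. More ATAC peaks in SNA and fewer in DCA by the rule were found for 1.53% of all genes and 0.783% of long genes. The share of genes with the H3K9ac pattern of Cacna2d2 was not computed. Of the 5 H3K9ac peaks of Sham in the Cacna2d2 window, 3 lay at Tmem115. The difference between the injuries was not tested, since each surgery is 1 pooled list.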

How the results depend on the processing

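No paired analysis was possible because each list pools its replicates and no value exists per sample, and for the same reason no replicate could be left out. The ATAC difference of Cacna2d1 between SNA and Sham passed the fold rule under each of the 7 alternatives run and was 6 at −log10 q of at least 5. The ATAC difference between DCA and Lam was -6 at q of at most 0.05 and -1 at −log10 q of at least 5, neither past the rule, and that between Lam and Sham was 8 at q of at most 0.05, where it passed the rule, -1 at −log10 q of at least 5 and 14 with each summit counted. For H3K27me3 of Cacna2d1 all 3 differences were 0 at both q limits. With the gene body alone SNA minus Sham was 1 and DCA minus Lam 0, with 50 kb on either side DCA minus Lam was 3 and Lam minus Sham -3, and with lists cut to equal sizes the values were 0 for SNA minus Sham, 4 for DCA minus Lam and -2 for Lam minus Sham. Signs reversed for Cacna2d2 H3K9ac, SNA minus Sham (1 at −log10 q of at least 5 and 5 with 50 kb), and for Cacna2d4 H3K27ac, DCA minus Lam (2 at that limit and 2 at equal sizes). The cause was not tested. Of the 12 calls on the 4 genes, 12 stood with midpoints inside the window, 10 with 50 kb, 9 with the gene body, 7 with equal sizes, 4 at q of at most 0.05 and 1 at −log10 q of at least 5; both ATAC calls stood with summits counted.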
